A study of Drosophila melanogaster with 12 samples.

Results

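Circular RNAs of Nxt1 mutant larvae were set beside the linear RNA of the genes they come from. The members were all circles that the deposited circRNA table of the mutant lists, 467 circles from 366 host genes, of 729 circles listed for the mutant, the wildtype or both. The tissue was the carcass of Drosophila melanogaster larvae in the third instar, at their stationary stage, from which the internal tissues had been removed. The mutant larvae were Nxt1 trans-heterozygotes of the strain yw (Nxt1), which carry a mutant allele on each homologous chromosome, and the alleles are not named in the sources used here. The control larvae were wildtype of the strain w1118 (WT), so strain and genotype cannot be told apart in any comparison between the groups. Total RNA depleted of rRNA was sequenced in 12 libraries, 3 for each of 4 groups. Values of mRNA and of its intronic precursor came from the M libraries (Nxt1_M and WT_M), and circle values from the R libraries (Nxt1_R and WT_R). The labels do not spell out these letters, which were read as mock treatment with water and RNase R. Whether the 3 libraries of a group came from separate pools of larvae is not stated, so the spread between them may be technical.

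A circular RNA forms when the end of an exon is joined to the start of the same or an earlier exon, called back-splicing, in place of the next exon downstream. The first exon of a transcript has no splice acceptor and the last has no donor, so neither is normally part of a circle. RNase R degrades linear RNA from its free end and spares circles, which lack one. Circles lie within the exons of ordinary genes, and the host's linear mRNA and the circle draw on the same precursor. The protein Nxt1 binds the export receptor that sbr encodes and helps it to carry mRNA out of the nucleus. The study asked how its loss affects circular RNA beside precursor and mature mRNA.

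Each circle was listed with its back-splice reads in 2 of the 3 Nxt1_R libraries, whose totals were 48182700, 71326500 and 78946600 reads. They are called the smallest, the middle and the largest library below, since the table does not tie a total to a replicate number. Levels of circles are in BPM, deposited by the authors. A value of back-splice reads per 1e+09 library reads is the reading of that unit that gives the totals above. The Nxt1_M libraries held 19830526 to 32868851 reads assigned to mRNA. Nxt1 itself, not a host of a listed circle, had 93, 165 and 147 mRNA reads in Nxt1_M and 346, 262 and 303 in WT_M. Its mean FPKM in the mutant was 63.3% of the wildtype mean (log2 fold change −0.58, SE 0.11, limma adjusted p = 0.0164). All 10 body wall muscle markers had reads in every Nxt1_M library, with a sum of 6.29% to 8.08% of mRNA reads against 3.11% to 7.10% in WT_M. The 8 markers of epidermis and cuticle summed to 6.99% to 9.02% against 3.47% to 5.31%. Of these, Lcp1, Lcp2, Lcp4 and Ddc were higher in the mutant without overlap, vvl was lower without overlap (0.0112% to 0.0125% against 0.0147% to 0.0192%), and Lcp3, kkv and grh overlapped. The sums of 2 other lists were higher in the mutant without overlap, 6 fat body markers at 0.517% to 0.748% against 0.337% to 0.413% and 5 of salivary gland at 0.0151% to 0.043% against 0.00155% to 0.0125%. Lower without overlap were 5 neuronal markers at 0.00361% to 0.00439% against 0.00561% to 0.00573%, and 6 of imaginal cells at 0.00507% to 0.00644% against 0.00991% to 0.0111%. In these bulk samples fewer cells of a type and less RNA per cell cannot be told apart.

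The most abundant circle was exon 2 of stw (transcript NM_001273780), the laccase gene needed for cuticle tanning. It had 3978 back-splice reads in the smallest library and 4772 in the largest, or 82561 and 60446 BPM. This circle held 15.9% of the summed circle level of the mutant. Exons 2 to 4 of Gyg, which encodes glycogenin, the primer of glycogen synthesis, followed with 2051 and 2765 reads, or 42567 and 38765 BPM. Exon 7 of tn, which encodes a TRIM protein of muscle, was next with 780 and 1248 reads, or 16188 and 17497 BPM. The first of these 3 circles had overlapping values in the listed WT_R libraries (79753 and 81335 BPM), and the other 2 lay below both (46264 and 47079 for Gyg, 23836 and 32572 for tn).

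The next places were held by exon 3 of cnc, exon 2 of larp and exons 3 to 4 of tai. The cnc gene encodes a bZIP transcription factor related to mammalian Nrf2, and its circle was at 10938 and 9295 BPM in Nxt1_R against 2182 and 4262 in WT_R. The larp gene encodes an RNA-binding protein, and its circle was at 11083 and 8973 against 13776 and 17305. The tai gene encodes a coactivator of the ecdysone receptor, and its circle was at 10709 and 6351 against 14829 and 14076. In both larp and tai the 2 mutant values lay below the 2 wildtype values, while in cnc they lay above.

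Exon 9 of Sarm, which encodes a TIR-domain NADase of axon degeneration, was the circle that stood furthest from its wildtype values among circles of both tables with at least 20 mutant reads. It had 322 and 447 reads in the mutant and 18 and 5 in the wildtype, or 6683 and 6267 BPM against 228 and 71.7. Of the other Sarm circles in both tables, exons 3 to 4 were at 646 and 883 BPM, below the wildtype values of 1421 and 1517, and exons 2 to 3 at 125 and 575, overlapping 140 and 293. Exons 3 to 4 of Pde8, a cAMP phosphodiesterase gene, were at 7264 and 6842 BPM, above both wildtype values (6055 and 5527). Exon 2 of Pka-C3, a gene for a protein kinase A catalytic subunit, was at 6164 and 5888, and exon 2 of IRSp53, a gene for a membrane-bending actin regulator, at 5479 and 5295. Both lay below their wildtype values of 7789 and 10346 and of 8897 and 8453. Exons 3 to 7 of CG33111 (8530 and 5636) and exon 2 of Magi, a scaffold gene (6123 and 4500), overlapped theirs. Of these 12 circles, 6 lay below both wildtype values, 3 above both and 3 overlapped. Over all 335 circles of both tables the shares were 32.8%, 19.4% and 47.8%. With 2 libraries against 2, the lowest possible exact two-sided permutation p is 0.333, so no difference of a single circle was tested. All 12 circles were listed with the smallest Nxt1_R library, and 11 were higher in it. Over the circles listed with each, the smallest, middle and largest Nxt1_R libraries held 22325, 19064 and 13191 back-splice reads. The WT_R libraries, with totals of 69690700, 78830800 and 92273200 reads, held 27942, 33883 and 21750. Places above or below the wildtype values may thus depend on which 2 libraries were listed, which was not tested.

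**Figure D1:**
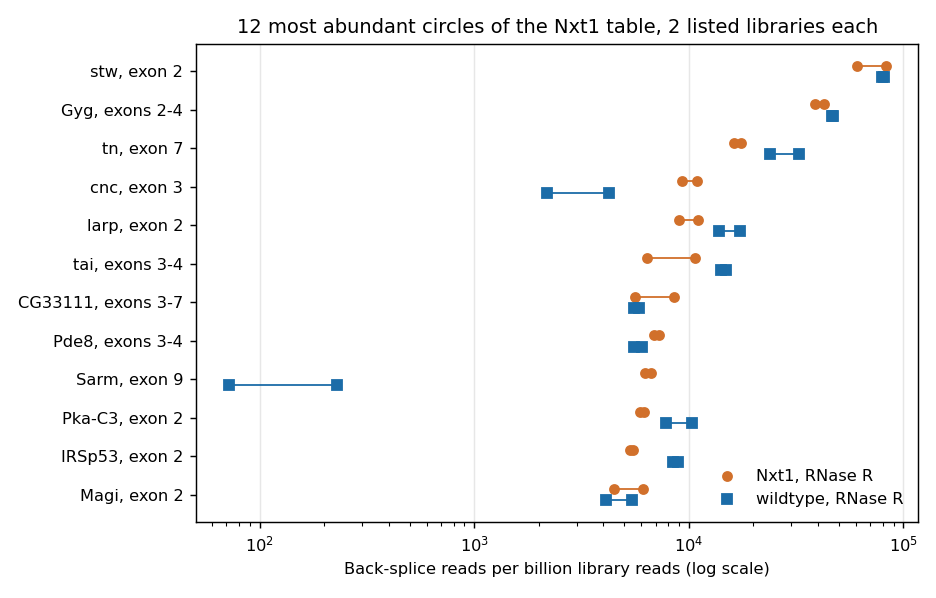
The 12 most abundant circles of the Nxt1 table, with the level in the 2 listed Nxt1_R libraries (circles) and the 2 listed WT_R libraries (squares) in BPM on a log axis, joined by a line per genotype. The stw circle lies at 60446 and 82561 in the mutant, and the Sarm exon 9 circle shows the widest gap between the genotypes, 6267 and 6683 against 71.7 and 228.

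The circle level was concentrated in few circles. The 10 most abundant circles held 41.1% of the summed level, against 41.3% in the wildtype table, and 8 circles were among the top 10 of both. In the mutant 20 circles reached 50% of the summed level and 201 reached 90%. The median circle had 37 reads over its 2 libraries, with a range of 2 to 8750. Of the 467 circles, 5 had at least 1000 reads, 96 at least 100 and 55 fewer than 10.

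Most hosts gave a single listed circle: 289 of 366 (79.0%, 95% exact binomial interval 74.4 to 83.0), against 337 of 445 in the wildtype table (75.7%, 71.5 to 79.6). The intervals treat hosts as independent and test no difference between the genotypes. A further 59 hosts gave 2 circles, 13 gave 3, 4 gave 4 and 1 gave 5. The host with 5 was Pde6, which encodes a cGMP phosphodiesterase, and exon 3 of it alone made up 63.4% of its level. That circle was at 4151 and 2650 BPM in the mutant against 799 and 804 in the wildtype, whereas exons 5 to 6 of the same gene were at 830 and 491 against 1586 and 1951. The 4 hosts with 4 circles were stw, Sarm, Ac76E (an adenylyl cyclase gene) and l(3)80Fg. In stw the exon 2 circle made up 99.6% of the host's level and the other 3 circles together had 33 of 8783 reads. In Ac76E the level was spread, with 33.1% in the top circle, exon 2, which had 15 and 19 reads. Among hosts with 3 circles, bol (an RNA-binding protein gene), LpR2 (a lipophorin receptor gene) and Parp1 (a poly(ADP-ribose) polymerase gene) had the highest summed levels. Their top circles, exons 3 to 4, exons 2 to 5 and exon 5, held 76.7%, 72.9% and 65.7% of the host's level.

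In the 77 hosts with more than 1 circle, the top circle held a median of 76.0% of the host's level, from 33.1% to 99.7%. Their 178 circles formed 132 pairs within a host. In 47 of these pairs both circles are named by the same transcript, so that exon numbers can be compared. In 19 of the 47 the circles shared the last exon and in 7 the first, 20 had no exon in common and 1 overlapped in another way. The Parp1 circles are an example without a shared exon: exons 2 to 3 (32 and 13 reads), exon 4 (41 and 12 reads) and exon 5 (100 and 65 reads) of NM_001110982 lie side by side.

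Many circles began at a low exon number of the host transcript. The number of exons per transcript was not taken into account. No circle began at exon 1, 214 of 467 (45.8%, 95% exact binomial interval 41.2 to 50.5) began at exon 2, 106 (22.7%) at exon 3 and 147 (31.5%) further downstream. Circles were short in exons: 138 (29.5%) held 1 exon, 171 (36.6%) held 2, 79 (16.9%) held 3, and 9 held 6 or more. Exon 2 alone was the most common form with 82 circles, followed by exons 2 to 3 with 74. The wildtype table gave nearly the same shares, with 45.9% of 597 circles starting at exon 2 and 32.5% (28.7 to 36.4) made of 1 exon. By level, circles starting at exon 2 held 56.5% of the mutant sum and those of 1 exon 48.5%. Without the circles of stw these shares were 48.3% and 38.7%.

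**Figure D2:**
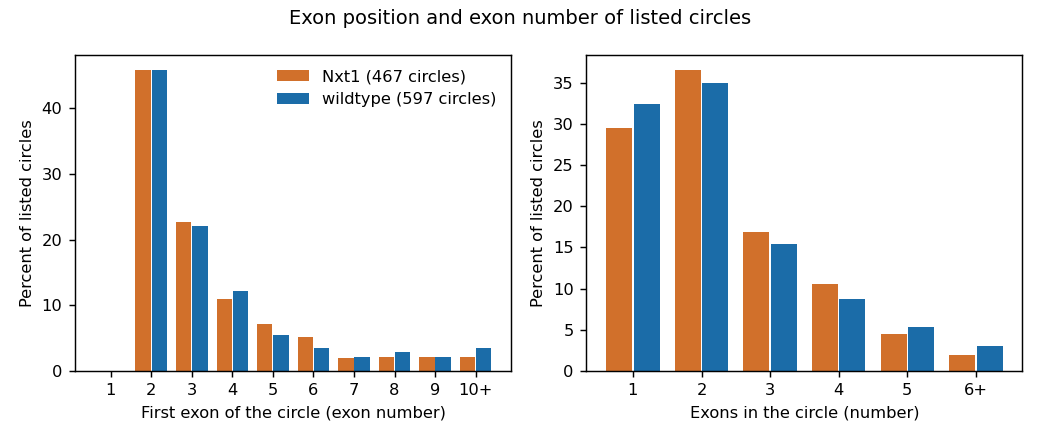
Percent of listed circles by the number of the first exon they hold (left) and by the number of exons they hold (right), for the 467 circles of the Nxt1 table and the 597 of the wildtype table. No circle starts at exon 1, and 45.8% of mutant and 45.9% of wildtype circles start at exon 2.

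Of the 9 circles with 6 or more exons, none had more than 65 reads. The longest with at least 10 reads was exons 8 to 16 of CG34126 (7 and 10 reads), followed by exons 4 to 11 of CG17839 (39 and 26) and exons 3 to 9 of PhKgamma, the gene for a phosphorylase kinase subunit (9 and 28). Circles of 6 exons came from MYPT-75D, a myosin phosphatase subunit gene (26 and 15 reads), foxo, a transcription factor gene of insulin signalling (14 and 19), GEFmeso (10 and 4) and Neto, whose product assists glutamate receptors of the neuromuscular junction (2 and 9). The CG33111 circle of 5 exons had 411 and 402 reads. The circle with the most exons of all was exons 2 to 12 of Itpr, the gene for the inositol trisphosphate receptor, with 2 and 1 reads. The exon of highest number was exon 28 of htt, the fly huntingtin gene, in a circle of exons 26 to 28 with 2 and 3 reads.

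The 2 listed libraries of a circle often differed widely. The median difference was 0.94 on the log2 scale of the scaled levels, or 1.92-fold, against 1.64-fold in the wildtype table. Of the 467 circles, 244 (52.2%) lay within 2-fold and 91 differed by more than 4-fold. Spread followed read number: the median was 2.96-fold for the 123 circles with fewer than 20 reads, 1.99-fold for the 248 with 20 to 99 and 1.40-fold for the 96 with 100 or more. All of the 12 most abundant circles lay within 2-fold, with tai the widest at 1.69-fold. For 257 circles (55.0%) the split expected from the library totals lay inside the 95% exact binomial interval of the circle's own read split. Among circles with 100 or more reads that share was 41.7%, so most of the abundant circles differed by more than counting error.

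The smallest library tended to be the higher one. It was higher in 141 of the 200 circles it shared with the middle library and in 96 of the 132 it shared with the largest. Between the middle and the largest library, the middle one was higher in 73 of 135. The median differences of these pairs were 0.49, 0.64 and 0.09 on the log2 scale. Single circles went further: exon 3 of Prosap, the gene for a postsynaptic Shank scaffold, had 1 read in the smallest library and 68 in the middle one. The next were exons 3 to 6 of Elk, a potassium channel gene (29 and 1 reads), exon 3 of for, a cGMP-dependent protein kinase gene (72 and 6), exons 3 to 4 of Myo31DF, a myosin gene (25 and 2), exons 2 to 4 of ACC, the acetyl-CoA carboxylase gene (2 and 22), and exons 5 to 8 of spin, a lysosomal transporter gene (21 and 3). The mean level of these 6 circles rests mostly on 1 library, and 5 of them, all but the circle of for, are not in the wildtype table.

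**Figure D3:**
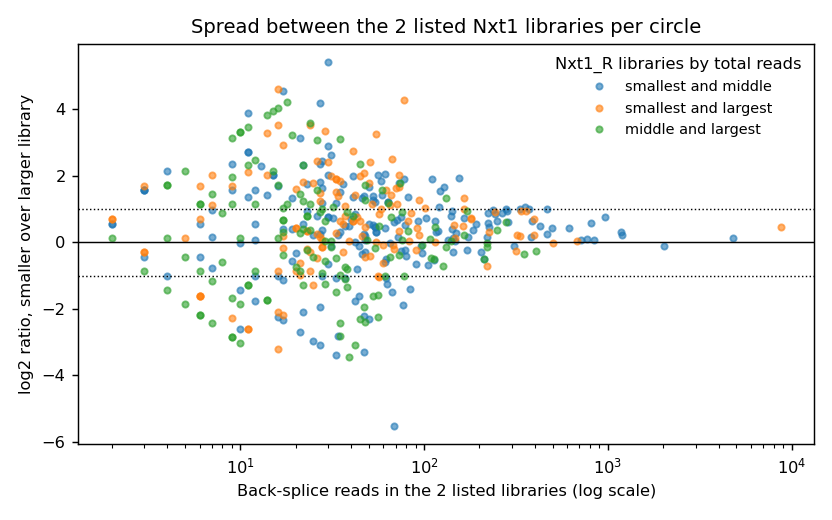
For each of the 467 circles, the log2 ratio of its scaled level in the smaller over the larger of its 2 listed Nxt1_R libraries, against its back-splice reads in both on a log axis, coloured by the pair of libraries. Dotted lines mark a 2-fold difference. The ratios narrow with read number, and most of those that involve the smallest library lie above 0.

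Of the mutant's circles, 335 were also in the wildtype table, 71.7% of the mutant list and 56.1% of the wildtype list. They carried 94.8% of the mutant's summed level. The hosts in common numbered 302, 82.5% of the mutant's and 67.9% of the wildtype's. The 132 circles found in the mutant table only had a median of 17 reads, against 53 for those in both, and at most 115 reads, in exons 2 to 4 of Hil. Of the 132, 65 came from hosts that have another circle in the wildtype table and 67 from 64 other hosts. In 16 of the 132, the wildtype table has a circle of the same gene and exon numbers under another transcript name. Whether these are the same circles was not examined, so the overlap may be understated. Among the shared circles, both mutant values lay below both wildtype values in 110, above in 65, and overlapped in 160. No source used here gives the rule by which a circle enters either table, or by which its 2 libraries were chosen. The counts of circles below, above and overlapping may depend on that choice, which was not tested.

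Hosts of circles were mostly genes of middling to high mRNA level. For levels across genes the FPKM were recomputed with each gene's own length, because the lengths in the deposited values are out of order. This was possible for 314 of the 366 hosts and is called reordered FPKM. The median host was at 19.4 reordered FPKM (mean of the 3 Nxt1_M libraries), with quartiles of 9.82 and 40.2, against a median of 10.6 over the 7868 genes with at least 1. Hosts made up 1.90% of genes at 1 to 10 reordered FPKM, 5.39% at 10 to 30 and 7.09% at 30 to 100, then 4.35% at 100 to 300, 6.18% at 300 to 1000 and 3.23% of the 93 genes above 1000, where there were 3 hosts. Hosts were long genes, with a median exonic length of 4720 bases against 1921 over genes with at least 1 reordered FPKM.

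Among hosts, the level of the circles ran largely apart from that of the mRNA. Spearman's rho across 314 hosts was 0.15, a description across genes that are no replicates, with circle and mRNA values from different libraries. The ratio of summed circle level to reordered FPKM, for the 243 hosts with at least 20 back-splice reads and a level, had a median of 33.1 and quartiles of 11.99 and 87.46. The M libraries were made from total RNA, so exonic reads of circles can be among the mRNA reads, and their share was not tested.

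The highest ratios fell into 2 kinds. CG13579, 5-HT2A (a serotonin receptor gene), CG4702 and CG13375 had almost no mRNA reads. CG13579, for example, had 0, 6 and 9 mRNA reads in the Nxt1_M libraries beside 28 back-splice reads. The other 4, a, stw, Pde6 and nub, had more mRNA reads, and of these only stw lay above the median host in mRNA level. The gene a had a summed circle level of 3127 BPM on 3.09, 2.20 and 2.62 reordered FPKM, a ratio of 1185. For stw the circle level of 71778 BPM stood beside 68.8, 74.4 and 61.3 reordered FPKM, a ratio of 1053. For Pde6 it was 5363 beside 7.49, 6.58 and 5.68, a ratio of 815. For nub, which encodes a POU transcription factor, it was 1005 beside 1.68, 1.05 and 2.03, a ratio of 633.

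The lowest ratios belonged to genes of high mRNA level with few back-splice reads. RpL3, a ribosomal protein gene, had 28 back-splice reads beside 1020, 1033 and 1025 reordered FPKM, a ratio of 0.212. It was followed by CG9297 (0.306), cher, the filamin gene (0.485), Gasp, a gene for a chitin-binding protein (0.548), frm (0.682), CG13676 (0.714), crc, the fly ATF4 gene (0.749), and Cam, the calmodulin gene (1.25). Each of these 8 hosts had between 23 and 40 back-splice reads. Between stw and RpL3 the mRNA level per length was the higher in RpL3 and the circle level the higher in stw.

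**Figure D4:**
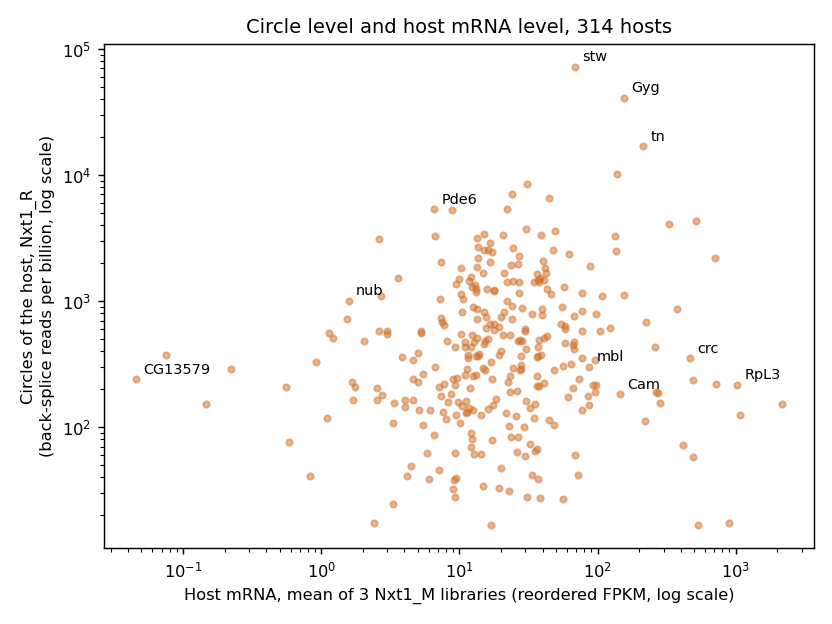
Summed circle level of each host in Nxt1_R (BPM) against its mean mRNA level in the 3 Nxt1_M libraries (reordered FPKM), both on log axes, for 314 hosts. The points form a broad cloud (rho 0.15) with stw, Gyg and tn at the top, CG13579 far to the left and RpL3 low on the right.

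Hosts had much intronic sequence and much intronic RNA. Intron length here is that of all introns of a gene together, its span less its exonic length. Pre-mRNA values were finite for 261 hosts, infinite for the other 105 through a length of 0, and 95 of the hosts had a level on their own intron length. The median of this length was 12737 bases in 127 hosts, against 642 for 2771 genes with at least 1 reordered FPKM. The number of introns per gene was not compared between hosts and these genes. Hosts had a median of 15.02 intronic reads per 100 mRNA reads in the mutant and 13.73 in the wildtype (256 hosts), against 2.22 and 2.36 over 3705 genes. These counts are not divided by length, so the greater total intron length of hosts enters them. Spearman's rho of circle level with pre-mRNA level per length was −0.0019 across the 95 hosts, and it depended on the measure: it was 0.30 with intronic reads not divided by length, 0.16 with intron lengths completed from the reference and 0.20 with the intronic reads per 100 mRNA reads of 256 hosts.

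Single hosts differed in this share. CG33111 had 76.0, 70.8 and 65.7 intronic reads per 100 mRNA reads in the 3 Nxt1_M libraries, and Pde6 had 37.5, 45.3 and 42.7. For stw the values were 9.58, 10.9 and 10.9, for Gyg 5.61, 6.89 and 4.27, and for RpL3 1.583, 1.202 and 1.505. In Pka-C3 the share was 19.5, 21.8 and 19.1 in the mutant and 14.2, 13.5 and 13.9 in the wildtype, with no overlap. On its own intron length, the highest ratios of circle level to pre-mRNA level in 76 hosts with at least 20 back-splice reads were those of CG13375 (857), Pde6 (599), CG17816 (432), Pka-C3 (349) and RtGEF (342). The lowest were those of RpL3 (0.747), frm (1.03), Gasp (2.92), CG13676 (3.97) and CG46385 (5.44).

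Host mRNA changed between the genotypes about as often as that of all genes. Of the 8923 genes that passed the filter of 1 FPKM on average, 12.5% were higher and 9.1% lower in Nxt1_M than in WT_M (limma on log2(FPKM + 1), adjusted p under 0.05), 21.6% in all. Of the 358 hosts tested, 46 were higher and 25 lower, 19.8% in all. Their median log2 fold change was 0.03 against 0.01 for all genes tested. When libraries were scaled to equal totals of reads, the median of all genes moved to −0.32 and that of the hosts to −0.34, and 15 hosts were higher and 165 lower. Directions below are therefore relative to the deposited scale. Without any 1 Nxt1 replicate or without WT replicate 1, 12 to 17 hosts were higher and 10 to 12 lower. Without WT replicate 2 the counts were 34 and 20, and without WT replicate 3 they were 62 and 65.

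The 6 largest rises among hosts were CG9297, Pgi (the glycolytic phosphoglucose isomerase gene), hlk, Cda4 (a chitin deacetylase gene), frm and Prm (the paramyosin gene). CG9297 was at 709, 808 and 654 reordered FPKM in the mutant and 136, 92.4 and 247 in the wildtype, without overlap (log2 fold change 2.30, SE 0.34, limma adjusted p = 0.00895). Pgi was at 525, 568 and 505 against 154, 119 and 229 (1.72, SE 0.23, limma adjusted p = 0.00704). Prm was at 1085, 1114 and 1026 against 399, 330 and 541 (1.37, SE 0.18, limma adjusted p = 0.00673). The log2 fold changes of hlk, Cda4 and frm were 1.52, 1.45 and 1.41. The summed muscle markers overlapped between the genotypes and those of epidermis and cuticle did not, as given above, and their part in these rises was not tested. Back-splice reads of these 6 hosts were 2 for Pgi, 16 for Prm, 23 for frm, 28 for CG9297, 86 for hlk and 161 for Cda4. The median over all listed circles was 37 reads per circle.

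The 6 largest falls were CG32333, Cyp18a1 (a P450 gene that inactivates ecdysteroids), Atet (an ABC transporter gene), scro (a homeobox gene), metro (a MAGUK scaffold gene) and CG6006. CG32333 was at 6.64, 7.24 and 9.51 reordered FPKM in the mutant and 19.4, 21.3 and 14.2 in the wildtype (log2 fold change −1.19, SE 0.19, limma adjusted p = 0.0112). Atet was at 2.34, 3.21 and 2.53 against 5.72, 5.43 and 6.28 (−1.07, SE 0.13, limma adjusted p = 0.00499), and scro at 1.21, 1.23 and 0.981 against 3.60, 2.98 and 2.56 (−0.94, SE 0.12, limma adjusted p = 0.0065). In all 3 the groups did not overlap. Cyp18a1 (−1.14), metro (−0.72) and CG6006 (−0.71) each lost the call when 1 of 4 libraries was left out, with adjusted p up to 0.0993, 0.12 and 0.0988. For Cyp18a1 and CG6006 these were each Nxt1 replicate and WT replicate 1, and for metro replicates 1 and 3 of both genotypes.

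Of the 10 hosts with the highest circle level, 2 passed the test for mRNA. Gyg was at 161, 159 and 144 reordered FPKM in the mutant against 91.7, 66.8 and 103 in the wildtype (log2 fold change 0.85, SE 0.17, limma adjusted p = 0.0204). Pde8 was at 24.4, 23.0 and 25.2 against 15.3, 17.0 and 20.0 (0.44, SE 0.10, limma adjusted p = 0.032). In both the groups did not overlap, and both calls were lost without any 1 Nxt1 replicate or without WT replicate 1, Pde8 also without WT replicate 2, with adjusted p up to 0.0735 and 0.108. With equal totals both calls were lost as well (0.47 and 0.10). The host stw was at 68.8, 74.4 and 61.3 against 94.4, 82.9 and 120, also without overlap, and missed the threshold (−0.53, SE 0.16, limma adjusted p = 0.0598). It passed without WT replicate 2 (limma adjusted p = 0.0419) and with equal totals (−0.90, limma adjusted p = 0.00612). By edgeR on recovered reads from all libraries stw passed as well (−0.58, edgeR adjusted p = 0.0397). Sarm, whose exon 9 circle stood out above, had a host log2 fold change of 0.01 (SE 0.10, limma adjusted p = 0.96), and cnc one of −0.02 (SE 0.13, limma adjusted p = 0.937). With equal totals both were called lower (−0.37 and −0.39).

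In pre-mRNA fewer genes were called. Of 3576 genes tested, 0.839% were higher and 0.643% lower in Nxt1_M (limma adjusted p under 0.05), 1.48% in all. Of 259 hosts tested, 6 were higher and 1 lower. The largest rise was that of CG13579, with 34, 64 and 59 intronic reads in the mutant against 8, 15 and 9 in the wildtype (log2 fold change 2.82, SE 0.25, limma adjusted p = 0.00781). It was followed by l(2)41Ab with 327, 544 and 531 against 142, 155 and 111 (2.25, SE 0.17, limma adjusted p = 0.00604). Both have a circle that is not in the wildtype table and mRNA below the filter. The calls of wun, a lipid phosphate phosphatase gene (1.45, SE 0.23), and CG42402 (1.35, SE 0.22), each at a limma adjusted p of 0.0491, were lost without any 1 of the 6 libraries and with equal totals. The other rises were Pka-C3 (0.94, SE 0.12, limma adjusted p = 0.0283) and Ptp10D, a receptor tyrosine phosphatase gene (0.84, SE 0.11, limma adjusted p = 0.0336). Both calls were lost without any 1 library other than WT replicate 3, with adjusted p up to 0.102 and 0.121, and that of Ptp10D also with equal totals (0.72). The only fall was CG10576 (−1.22, SE 0.19, limma adjusted p = 0.0491), with 64, 153 and 139 intronic reads against 363, 338 and 431, a call lost without any 1 of 5 libraries, WT replicate 3 being the sixth. Without WT replicate 3, 7 hosts were higher and 7 lower, and without any 1 of the other 5 libraries 1 to 3 were higher and 0 lower. The call of CG13579 was lost without Nxt1 replicate 2 (limma adjusted p = 0.052).

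Circle and host were set side by side for the 282 shared circles with at least 20 mutant reads and a tested host. The median log2 ratio of mean circle level, mutant over wildtype, was −0.09. The minimum is set on mutant reads only, and without it the median over 333 circles was −0.26. With the minimum it was −0.20 for 31 circles whose host mRNA was called higher, −0.89 for 24 whose host was called lower and −0.02 for 227 whose host was not called. Without it the medians were −0.41, −1.01 and −0.21, for 36, 30 and 267 circles. With the minimum, 14 circles of the first were above their wildtype mean, 9 of the second and 110 of the last. The R and M libraries are separate, each circle rests on 2 libraries a genotype, and no test was made of these differences. Which 2 libraries were listed for a circle may enter its ratio. Over all 282 circles, 54 were more than 2-fold lower than in the wildtype and 51 more than 2-fold higher. Of the 24 circles of hosts called lower, which came from 20 hosts, 11 were more than 2-fold lower and 3 more than 2-fold higher. The lowest were those of CG6006, at 355 and 673 BPM against 2753 and 3002, and Cyp18a1, at 127 and 154 against 875 and 564. The 3 higher ones came from ClC-a, a chloride channel gene (log2 ratio 1.95), fng, a gene for a glycosyltransferase of Notch signalling (1.62), and mbl (1.03). Of the 31 circles of hosts called higher, 7 were more than 2-fold lower and 5 more than 2-fold higher, near the shares over all 282. In Gyg, one of these hosts, the circle lay below both wildtype values while the host mRNA was higher. Its log2 ratio of −0.20 was the median of the 31 circles.

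**Figure D5:**
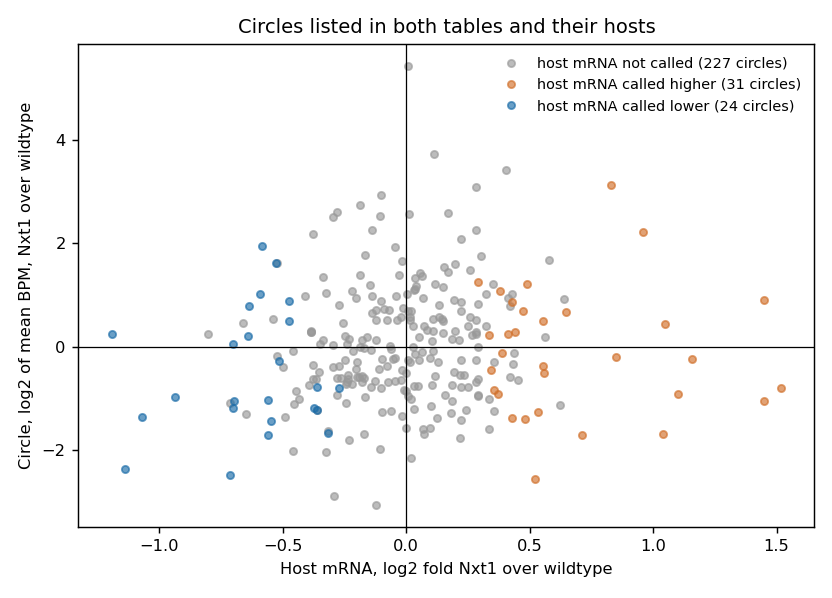
Log2 ratio of the mean circle level, Nxt1 over wildtype, against the log2 fold change of the host's mRNA, for 282 circles of both tables with at least 20 mutant reads, coloured by whether the host was called in mRNA. Circles of hosts called lower have a median of −0.89, those of hosts called higher −0.20, and the highest point is the exon 9 circle of Sarm.

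Genes known from circle formation and splicing included 3 hosts among 32 listed. Over genes with at least 1 reordered FPKM, 3.89% were hosts, and over all genes tested 12.5% were higher and 9.1% lower in mRNA, the background for the counts of the lists below. The mbl gene encodes Muscleblind, which regulates splicing and binds a circle of its own gene in flies. It gave 1 listed circle, exons 6 to 9 of NM_001274115, with 31 reads. Whether this is the circle that Muscleblind binds was not examined. The mRNA of mbl fell to 83.0, 90.2 and 88.4 reordered FPKM in Nxt1_M from 135, 120 and 141 in WT_M, without overlap (log2 fold change −0.59, SE 0.09, limma adjusted p = 0.00881). The ps gene, which encodes the splicing regulator Pasilla, gave a circle with 211 reads, and heph, the polypyrimidine tract binding protein gene, one with 6. Their mRNA log2 fold changes were 0.23 and 0.26, short of the threshold. Over the list, limma called 0 of 32 tested genes higher and 2 lower in mRNA (mbl and x16), with 2 and 4 at an unadjusted p under 0.05, beside 12.5% and 9.1% of all genes. By edgeR 0 were higher and 4 lower. Of the 14 genes of circle export, m6A and decay none was a host, 2 were higher (sbr and Ythdc1) and 1 lower (Nxt1 itself). The median log2 fold changes were 0.03 and 0.14, beside 0.01 over all genes tested.

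Of the muscle structure genes, 13 of 30 tested were higher and 1 (Dg) lower, beside 12.5% and 9.1% of all genes, with a median log2 fold change of 0.69. The 5 hosts among them were tn, bt (projectin), Prm, and the integrin genes mys and mew. Of these bt (1.23, SE 0.23, limma adjusted p = 0.0172), Prm and mys (0.43, SE 0.08, limma adjusted p = 0.0144) rose. The calls of bt and mys were lost without any 1 Nxt1 replicate or WT replicate 1, with adjusted p up to 0.0669 and 0.0659, and that of mys also with equal totals (0.06). In tn, the muscle host with by far the highest circle level, mRNA was at 173, 225 and 246 reordered FPKM against 271, 303 and 264 (−0.39, SE 0.15, limma adjusted p = 0.11). The muscle markers held 6.29% to 8.08% of mRNA reads in Nxt1_M against 3.11% to 7.10% in WT_M, and their part in these rises was not tested. All 10 markers are also members of this list, so their sum is no separate measure. As shares of mRNA reads, 9 of the 10 overlapped between the genotypes and 1, Prm, was higher in the mutant.

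The cuticle and tanning list had 3 hosts, stw, serp (a chitin deacetylase gene, 59 reads) and pio (a zona pellucida domain gene, 125 reads). None of the 3 passed the test for mRNA, while 4 of 14 tested genes of the list were higher (Ddc, Lcp1, Lcp2 and Cpr49Ah) and 0 lower by limma, beside 12.5% and 9.1% of all genes, with a median log2 fold change of 0.43. Below 0, 1 gene had an unadjusted p under 0.05, and edgeR called 1 lower. Ddc, Lcp1 and Lcp2 are also among the epidermis and cuticle markers, of which 4 of 8 were higher in the mutant and 1 lower without overlap. Genes of membrane excitation had 3 hosts, the potassium channel gene Sh (23 reads), Itpr (3 reads) and the cAMP phosphodiesterase gene dnc (108 reads), with 3 of 21 tested genes higher and 2 lower and no host called. That is near the 12.5% and 9.1% of all genes. Signalling genes had 7 hosts, in a list drawn up with known hosts in view, with 3 of 23 genes higher and 2 lower, also near the background. Beside Pka-C3 and Pde8 they were put (a TGF-beta family receptor gene, 12 reads), ftz-f1 (a nuclear receptor gene, 6 reads), ct (a homeobox gene, 5 reads), scny (a deubiquitinase gene, 82 reads) and luna (a zinc finger gene, 74 reads). The median log2 fold changes of the last 2 lists were −0.04 and 0.01, and Pde8 was the only host called in either.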

How the data were processed

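Counts of back-splice reads in the circRNA table are the authors' deposited values, and the same counts follow as BPM, per the file headers. A scale of 1e+09 library reads and the library totals were inferred from the ratio of both. A circle is named by transcript, last and first exon, a reading inferred from the values. No source used here gives the circRNA caller or the genome build. Both linear tables, mRNA and pre-mRNA, hold FPKM deposited by the authors, per the labels. In the submitters' processing notes the tools listed without roles are STAR 2.5.3a, Trimmomatic 0.36, featureCounts 1.6.2, Subread and DESeq2.

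Lengths in the FPKM are out of order: a row's implied length belongs to another gene, the one found at that rank when IDs are sorted. Ratios within a gene gave back whole reads (tolerance 0.01) in each of the 15293 mRNA and 4543 pre-mRNA genes with a finite value. On simulated data 97.0% and 96.6% of 4000 genes each came back exactly. Lengths were put back in order for levels across genes only. Symbols came from a RefSeq gene table, and 6 hosts were named through their transcript.

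Nxt1_M was tested against WT_M (3 libraries each) in limma (version 3.58.1, R 4.3.3). The values were log2(FPKM + 1) of genes averaging 1 FPKM or more, with a trended eBayes fit on genotype, and Benjamini-Hochberg adjusted p under 0.05 was the threshold. Fold changes are on FPKM + 1 and understate those of low genes. On simulated data with 8944 genes this test called 92% of mRNA changes of 2-fold and 96% of 3-fold. With 3055 genes it called 62% and 80% of such pre-mRNA changes. Of the simulated calls, 6.93% were false in mRNA and 5.96% in pre-mRNA. The simulation gave every gene the same dispersion and held no outlying library, so these shares need not hold for the real libraries. Intervals of read splits cover counting error only, since the reads have no molecular identifiers. Intervals of shares treat hosts or circles as independent, which circles of the same host are not, and leave out the spread between libraries. Alternatives included edgeR 4.0.16 on recovered reads, other scalings, pseudocounts and filters, and leaving out libraries.

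Members, gene lists, markers and the rule for named genes were chosen with earlier results of these data known. The rule takes the 12 most abundant circles, 10 top hosts, 8 hosts with most circles, 8 circles with most exons and that of highest exon number, 6 circles with the widest spread, 8 hosts at each end of the ratio to mRNA (5 for pre-mRNA), 6 hosts at each end of the mRNA change (4 for pre-mRNA) and hosts on the lists. Pgi, Prm and others with few reads thus appear by their mRNA. Ptp10D, Hil, ClC-a, fng and the genes named in list counts were named after their values were seen.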

Additional observations from a re-analysis of the deposited data

How the results depend on the processing

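The number of genes called in mRNA between Nxt1_M and WT_M, 1929, was 4897 with libraries scaled to equal totals, when 527 were higher and 4370 lower. Hosts called were then 15 higher and 165 lower. In pre-mRNA, 53 genes were called. That count was 205 with edgeR on recovered reads and 9 with lengths put back in order, where 1159 genes could be tested. Of the hosts, 6 were higher and 1 lower in pre-mRNA. These counts were 17 and 5 with edgeR, 3 higher with equal totals, 0 and 0 with lengths put back (12 and 5 at an unadjusted p under 0.05), and 0 lower with no filter (22 unadjusted). Leaving out 1 library at a time gave 757 to 2691 genes in mRNA (hosts 12 to 62 higher, 10 to 65 lower) and 14 to 139 in pre-mRNA (hosts 1 to 7 higher, 0 to 7 lower).

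With a replicate block, 585 genes were called in mRNA (hosts 11 higher, 5 lower) and 0 in pre-mRNA by limma (hosts 0 and 0, or 31 and 13 at an unadjusted p under 0.05). The numbers do not pair the libraries, as the correlations of same-numbered deviations were −0.081, −0.123 and −0.286, and some differently numbered libraries correlated more (up to 0.45).

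Of 38 hosts followed in mRNA, 17 were called, and 2 hosts short of the threshold were called with the opposite sign at equal totals, Sarm (−0.37) and put (−0.36). No mRNA call was lost with edgeR, with lengths put back or with a pseudocount of 0.1. With the replicate block 10 of the 17 were lost, and 7 stayed called under every alternative. Of 7 hosts called in pre-mRNA, 0 stayed called under every alternative. With circles found in both tables only, an alternative chosen after the data were seen, 83.3% of hosts had 1 circle. The share of the 10 top circles was 40.0% to 42.4% with 1 library left out. The spread was 1.09 (log2) for circles of the middle and the largest library. The rho with mRNA was 0.064 with FPKM as deposited, 0.14 with at least 10 back-splice reads, 0.12 with reads not divided by length, 0.14 with the top circle per host, 0.14 without stw (chosen after the data were seen) and 0.15 with 1 library left out. The rho with pre-mRNA was 0.20 with FPKM as deposited, 0.30 with reads not divided by length, 0.16 with intron lengths completed from the reference (chosen after the data were seen), and −0.025 to 0.0022 with 1 library left out. The median log2 ratio of circles, −0.09, was −0.26 with no minimum of reads and −0.28 with an average of 20 reads per table, both chosen after the data were seen. For hosts called higher it was −0.41 and −0.41, for hosts called lower −1.01 and −1.04, and for hosts not called −0.21 and −0.24. The cause of these shifts was not tested. With 2 libraries a circle and a median of 37 reads, depth limits the comparison of single circles.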
